A study of Emberiza bruniceps with 4 samples.

Results

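The genes that make and carry the monoamine transmitters were read across 4 hypothalamus RNA-seq libraries from the red-headed bunting (Emberiza bruniceps), a migratory songbird. They were chosen by name: each assembled bunting transcript (contig) was given the flycatcher protein it matched best, and a name was kept where it began with 1 of 8 enzyme or transporter names. The rule found 10 of 11945 protein names, and 9 of these were among the 10556 names with enough reads to be compared. The members are tryptophan 5-hydroxylase 1 and 2 (TPH1 and TPH2), tyrosine 3-monooxygenase and a similar protein (TH and TH-like), aromatic-L-amino-acid decarboxylase (DDC), dopamine beta-hydroxylase (DBH), synaptic vesicular amine transporter (SLC18A2), the serotonin transporter and a similar protein (SLC6A4 and SLC6A4-like), and the noradrenaline transporter (SLC6A2). No name (0 of 11945) began with the dopamine transporter, the product of SLC6A3. The symbols stand for the protein names that the match table gives, and no bunting gene model was used here.

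Serotonin is made from tryptophan by tryptophan hydroxylase and then DDC, and dopamine from tyrosine by tyrosine hydroxylase and then the same DDC, with the hydroxylase setting the rate in both branches. DBH turns dopamine into noradrenaline, SLC18A2 loads all of these amines into vesicles, and SLC6A4 and SLC6A2 take serotonin and noradrenaline back into the cell. In vertebrates the cell bodies of most TPH2 and SLC6A4 neurons lie in the raphe of the midbrain and hindbrain and those of DBH neurons in the hindbrain, whereas the hypothalamus has TH and DDC neurons of its own.

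The groups were intact birds in spring, intact birds in autumn, castrated birds in spring and castrated birds in autumn, with 1 library of total RNA for each. Where 4 values are listed "in order", they belong to the intact spring, the intact autumn, the castrated spring and the castrated autumn library. All birds were caught in the wild, and the labelled tissue is hypothalamus throughout. The labels used here do not give the sex, the age, the number of birds behind a library, or how long before sampling castration was done. With 1 library a group there is no estimate of the spread between birds of a group and no test of a single pair: each ratio below stands with its exact 95% binomial interval, which covers counting error only, and was called at a size of 2-fold (a log2 ratio of 1 or more). In bulk tissue, fewer cells of a type and less RNA per cell cannot be told apart.

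The libraries held 16840270 to 26213011 estimated counts, of which 39.1% to 41.7% lay on contigs with a protein match. Levels are given as estimated counts and as CPM, the counts per 1000000 matched counts after scaling. The castrated pair stood apart from the intact pair in markers of brain regions. Hypothalamic markers were present in all 4 libraries, with 13 of 17 matched and a summed level of 317 to 440 CPM. Without POMC, which is also on the pituitary list, they summed to 353, 317, 248 and 243 CPM in order. NPY made up 117, 141, 13.3 and 27.2 CPM of these sums. NKX2-1, a transcription factor of the ventral forebrain, had 163, 132, 16 and 13 counts in order, and NPY and ISL1 were also over 2-fold lower in castrates in both seasons. NR5A1 went the other way, with 2, 0, 113 and 33 counts in order. It passed the minimum of 1 CPM on average only through the castrated libraries, so it had to be higher there on average. Of the 13 hypothalamic markers compared, 3 were 2-fold lower and 2 (POMC and NR5A1) higher in both seasons. Over all compared genes these shares were 9.62% and 4.54%. Telencephalic markers summed to 960 and 1217 CPM in intact birds and to 57.2 and 48.5 CPM in castrates (7 of 8 matched). Hindbrain markers summed to 2.87 and 3.24 CPM in intact birds against 131 and 84.4 CPM in castrates (6 of 11 matched). Midbrain and isthmus markers summed to 4.23 and 15.5 CPM against 171 and 98.2 CPM (7 of 8 matched), and pituitary markers to 7.51 and 0.406 CPM against 746 and 509 CPM (7 of 8 matched). EGR2, on the hindbrain list, went against its sum, with 21, 22, 3 and 0 counts in order. It made up 2.87 and 2.97 CPM of the hindbrain sums in intact birds. Castration and whatever else set the intact and castrated libraries apart cannot be told apart in this design.

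**Figure D1:**
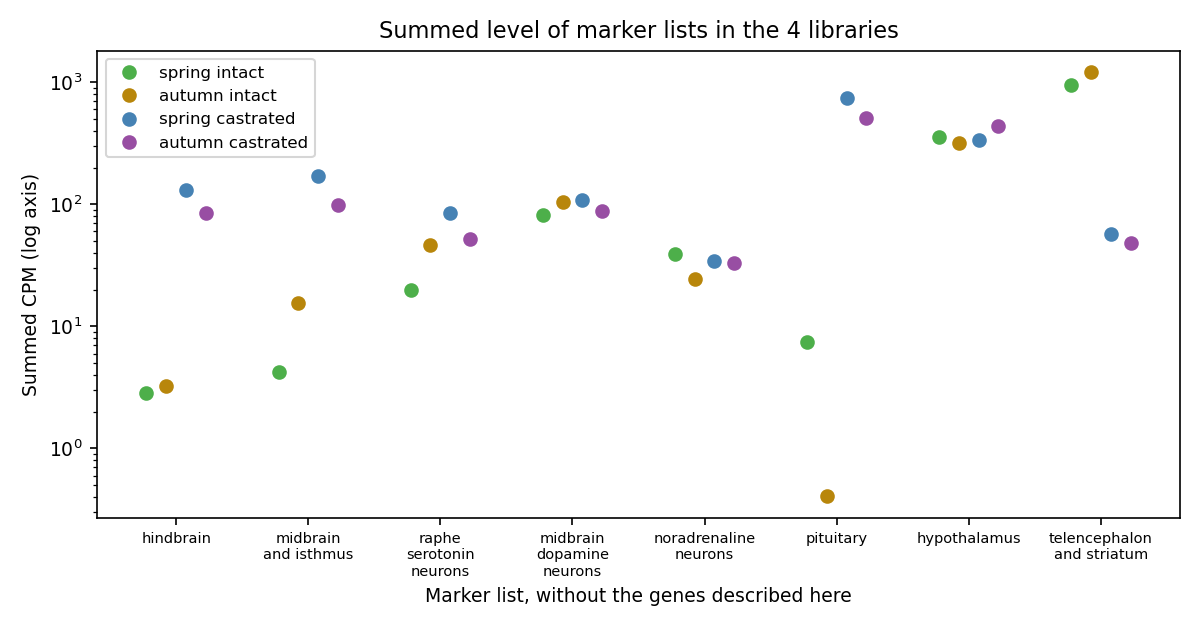
Summed level of 8 lists of region and cell type markers in each library (CPM, log axis), with the member genes left out of the sums, 1 point for each library. The hindbrain, midbrain and pituitary sums were higher in both castrated libraries, and the telencephalic sum was higher in both intact libraries. The hypothalamic, dopamine and noradrenaline sums overlapped between the groups. The overlap of the hypothalamic sums rests on POMC and that of the dopamine sums on DRD2.

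Most monoamine genes were higher in the castrated than in the intact library of the same season. In spring 7 of the 9 compared members were at least 2-fold higher in the castrate, where 8.67% of all compared genes were, and 0 of 9 were 2-fold lower, where 14.5% of all were. In autumn 6 of 9 were 2-fold higher, against 12.3% of all compared genes, and 0 of 9 lower, against 15.2%. The 5 members higher in both seasons were TPH2, SLC6A4, SLC18A2, DBH and DDC, while 4.54% of all compared genes were 2-fold higher and 9.62% 2-fold lower in both. The median log2 ratio of the 9 members was 1.69 in spring and 2.99 in autumn, beside 0.01 and -0.01 over all compared genes. The spring median was the ratio of TH-like, which is also among the 7 called in spring. TH-like passed the minimum of 1 CPM on average only through the castrated libraries, so it had to be higher there on average. The spring count of 7 was 5 with 2 CPM added, which ended the calls of TPH1 and TH-like, and 6 with TPM, which ended that of TPH1. An additive edgeR quasi-likelihood fit, which takes the seasons as replicates of each gonadal state and has 1 residual degree of freedom, called 8.12% of genes higher and 14.3% lower in castrates after Benjamini-Hochberg adjustment, and among the 9 members it called the same 5 as higher and 0 as lower. All 10 members together summed to 72.3, 43.7, 566 and 437 CPM in order.

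**Figure D2:**
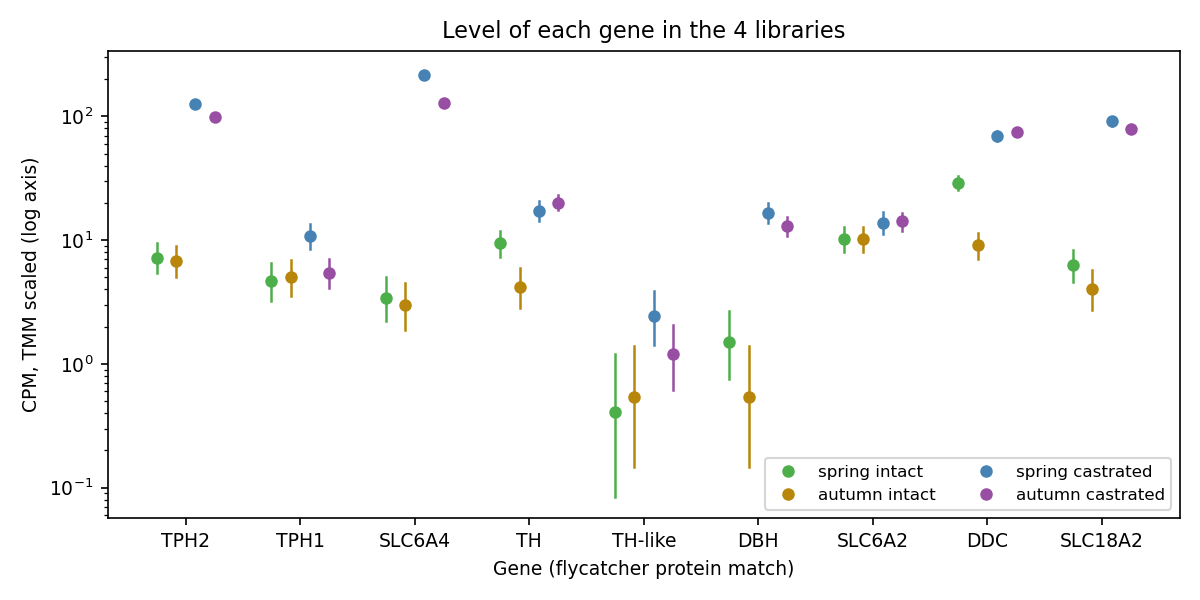
Level of each compared member in each library (CPM, log axis), with 1 point for each library and bars for the exact 95% Poisson interval of its count. For TPH2, SLC6A4, SLC18A2, DBH, DDC and TH both castrated libraries lie above both intact ones by more than the counting error. The share of all compared genes that do so was not computed.

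SLC6A4, the serotonin reuptake transporter, differed most between castrated and intact libraries. Intact birds had 25 counts (3.41 CPM) in spring and 22 (2.97 CPM) in autumn, and castrates had 1523 (218 CPM) and 1293 (128 CPM). Both intact libraries were low and both castrated ones high, with no overlap. Castrated over intact, the log2 ratio of CPM was 5.80 (5.43 to 6.63) for the spring pair and 5.21 (4.83 to 6.11) for the autumn pair.

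TPH2, the hydroxylase of brain serotonin neurons, followed the same order. Intact birds had 53 counts (7.24 CPM) in spring and 50 (6.76 CPM) in autumn, against 883 (126 CPM) and 1007 (99.95 CPM) in castrates. The intact libraries were close to each other and far below both castrated libraries. Its castrated over intact log2 ratio was 4.03 (3.72 to 4.55) for spring and 3.79 (3.48 to 4.33) for autumn.

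TPH1, the hydroxylase best known from the pineal gland and the gut, did not share this difference in both seasons. It had 34, 37, 75 and 55 counts in order (4.64, 5.0, 10.7 and 5.46 CPM). Only the spring castrated library was high, and the other three lay within counting error of each other. As a log2 ratio of castrated over intact this was 1.13 (0.60 to 1.84) for spring and 0.12 (-0.50 to 0.77) for autumn. The spring value rests on how reads were shared between TPH1 contigs: from the contig with the most counts alone it was -0.49.

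SLC6A4-like, matched by a single contig of 418 bases over 137 residues, had 0, 2, 1 and 1 counts in order. It was too low to be compared: the limit that a count of 0 allows (3 counts) was 0.410 CPM in the spring intact library. TPH1, TPH2 and SLC6A4 made up 21.2% (17.8 to 24.9) of all member counts in intact birds in spring and 33.7% (28.6 to 39.2) in autumn. In castrates they made up 62.7% (61.1 to 64.2) in spring and 53.4% (52.0 to 54.9) in autumn, so most monoamine counts there came from the serotonin genes.

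SLC18A2, the vesicular transporter that serotonin, dopamine and noradrenaline neurons all use, had 46 counts (6.28 CPM) in spring and 30 (4.06 CPM) in autumn in intact birds. Castrates had 638 (91.2 CPM) and 804 (79.8 CPM). The groups did not overlap, and the castrated libraries were the high ones. Castrated over intact gave a log2 ratio of 3.76 (3.43 to 4.32) for spring and 4.14 (3.77 to 4.88) for autumn.

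DDC, the decarboxylase shared by the serotonin and catecholamine branches, had 213 counts (29.1 CPM) in spring and 67 (9.06 CPM) in autumn in intact birds. Castrates had 489 (69.9 CPM) and 760 (75.4 CPM). The castrated libraries were again above both intact ones, but the intact libraries also differed from each other, with the autumn one low. Its castrated over intact log2 ratio was thus smaller for spring, at 1.25 (1.03 to 1.5), than for autumn, at 2.99 (2.70 to 3.44). Those intervals do not overlap, and they carry no error between birds.

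TH, the hydroxylase of dopamine and noradrenaline neurons, had 69 (9.42 CPM), 31 (4.19 CPM), 121 (17.3 CPM) and 202 counts (20.1 CPM) in order. Both castrated libraries were above both intact ones, and the autumn intact library was the lowest. Castrated over intact, its log2 ratio was 0.84 (0.44 to 1.32) for spring, under the 2-fold call, and 2.13 (1.71 to 2.85) for autumn. TH-like had 3, 4, 17 and 12 counts in order, and castrated over intact log2 ratios of 1.69 (0.78 to 4.98) for spring and 0.70 (-0.58 to 3.23) for autumn. It passed the minimum of 1 CPM on average only through the castrated libraries, and of these ratios the spring one alone was outside counting error.

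DBH, which makes noradrenaline from dopamine, had 11 counts (1.5 CPM) in spring and 4 (0.541 CPM) in autumn in intact birds, against 116 (16.6 CPM) and 130 (12.9 CPM) in castrates. The groups did not overlap, and the intact levels rest on very few reads. On the log2 scale castrated over intact was 3.09 (2.57 to 4.51) for spring and 3.69 (3.19 to 6.47) for autumn. These values were lower with TPM, at 1.39 and 2.47.

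SLC6A2, the noradrenaline transporter, was close to level across the libraries. Intact birds had 75 counts (10.2 CPM) in spring and 76 (10.3 CPM) in autumn, and castrates 96 (13.7 CPM) and 143 (14.2 CPM). The castrated libraries were slightly higher, by a log2 ratio of 0.40 (-0.03 to 0.88) for spring and 0.45 (0.06 to 0.89) for autumn. DBH and SLC6A2, both on the noradrenaline neuron list used here, thus had different ratios in the same libraries, with intervals that did not overlap. Whether SLC6A2 marks only those neurons in this bird was not tested. TH, DBH and SLC6A2 together made up 29.3%, 34.4%, 8.41% and 10.8% of member counts in order. That lower share came with a higher summed level (21.2, 15.0, 47.6 and 47.1 CPM in order). TPH2, SLC6A4 and SLC18A2 were higher in castrates by more than that sum.

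**Figure D3:**
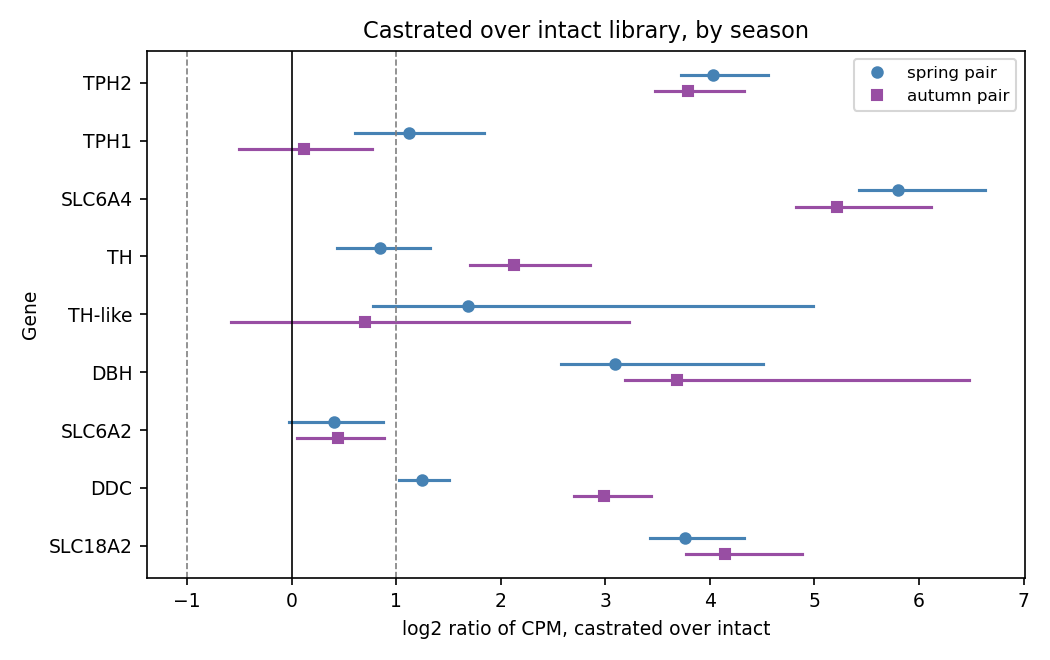
Log2 ratio of CPM, castrated over intact, for each compared member in spring and in autumn, with the exact 95% binomial interval of the count split, and the 2-fold lines. SLC6A4 is highest in both seasons (5.80 and 5.21), SLC6A2 lies near 0 (0.40 and 0.45), and DDC and TH have larger ratios in autumn than in spring.

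Some of the marker lists for these neurons differed between castrated and intact libraries and others did not. Without the members, markers of raphe serotonin neurons summed to 19.8, 46.2, 85.1 and 52.5 CPM in order. Their defining transcription factor FEV had 2 and 10 counts in intact birds and 44 and 30 in castrates. Castrated over intact log2 ratios for spring and autumn were 3.13 and 0.91 for FEV and 2.67 and 0.64 for GATA3. LMX1B had 3.34 and 0.17 and HTR1A 0.59 and -0.40. In autumn each of these markers was thus under the 2-fold call. Markers of noradrenaline neurons without DBH and SLC6A2 summed to 38.9, 24.3, 34.5 and 33.4 CPM in order, most of it from galanin (GAL), a peptide that hypothalamic neurons also make. Markers of midbrain dopamine neurons without TH summed to 82.6, 104, 109 and 88.8 CPM in order, and without DRD2, a dopamine receptor also found in striatum, to 4.92, 13.4, 90.5 and 69.9 CPM. PHOX2A, which specifies noradrenaline neurons, had 0, 1, 33 and 42 counts in order, whereas TFAP2B, another factor on that list, had 8, 60, 55 and 24. HOXA2 and HOXA3, which are expressed in the hindbrain and behind it, had 0 or 1 counts in each intact library and 319 to 418 in each castrated one, the same libraries in which SLC6A4, TPH2, SLC18A2 and DBH were high. Of the other cell types, oligodendrocyte markers (2 of 4 matched) summed to 7509.5, 4305, 17316 and 13862 CPM in order, the 1 matched astrocyte marker of 3 to 386, 404, 277 and 269, and pineal markers without TPH1 to 14.2, 17.6, 16.4 and 33.6. The part of the hindbrain, midbrain, pituitary, telencephalic and oligodendrocyte markers in the difference between castrated and intact libraries was not tested.

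Between seasons the members differed less. Among intact birds 2 of the 9 members, DDC and TH, were at least 2-fold higher in spring, where 2.55% of all compared genes were, and 0 of 9 were 2-fold lower, where 4.48% were. Among castrated birds 0 of 9 were 2-fold higher and 0 of 9 lower, beside 2.48% and 5.41% of all compared genes. None of the 9 passed 2-fold the same way in both pairs, where 0.237% of all compared genes were higher and 0.635% lower in spring. The median log2 ratio of spring over autumn was 0.17 among intact and 0.34 among castrated birds, beside 0.02 and -0.00 over all compared genes.

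DDC had a log2 ratio of spring over autumn of 1.63 (1.28 to 2.1) among intact birds and -0.11 (-0.28 to 0.06) among castrated birds. TH, the step before DDC in the dopamine branch, had 1.08 (0.54 to 1.83) and -0.21 (-0.55 to 0.12). Both genes were thus low in the autumn intact library, and close to level between the castrated ones. SLC6A4 had 0.17 (-0.69 to 1.10) among intact and 0.76 (0.65 to 0.87) among castrated birds. TPH2 had 0.09 (-0.49 to 0.69) and 0.34 (0.20 to 0.47), and TPH1 had -0.10 (-0.82 to 0.60) and 0.91 (0.45 to 1.5). The 3 serotonin genes were therefore above counting error in spring over autumn among castrated birds, each by less than 2-fold, and within it among intact birds. For the hydroxylases this depends on the contigs: among castrated birds TPH1 had -0.70 with its highest contig only, and TPH2 had -0.06 with its highest contig only and 1.21 with its longest match contig only. SLC18A2 had 0.57 (-0.06 to 1.35) among intact and 0.19 (0.04 to 0.34) among castrated birds, and DBH 0.94 (-0.28 to 3.58) and 0.35 (-0.01 to 0.73). SLC6A2 had -0.00 (-0.48 to 0.48) and -0.05 (-0.44 to 0.33), and TH-like -0.19 (-3.17 to 2.16) and 0.79 (-0.12 to 2.23), all within counting error. Hindbrain and midbrain markers also had higher sums in the spring than in the autumn castrated library (131 against 84.4 CPM and 171 against 98.2 CPM), and their part in the season values of the serotonin genes was not tested.

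**Figure D4:**
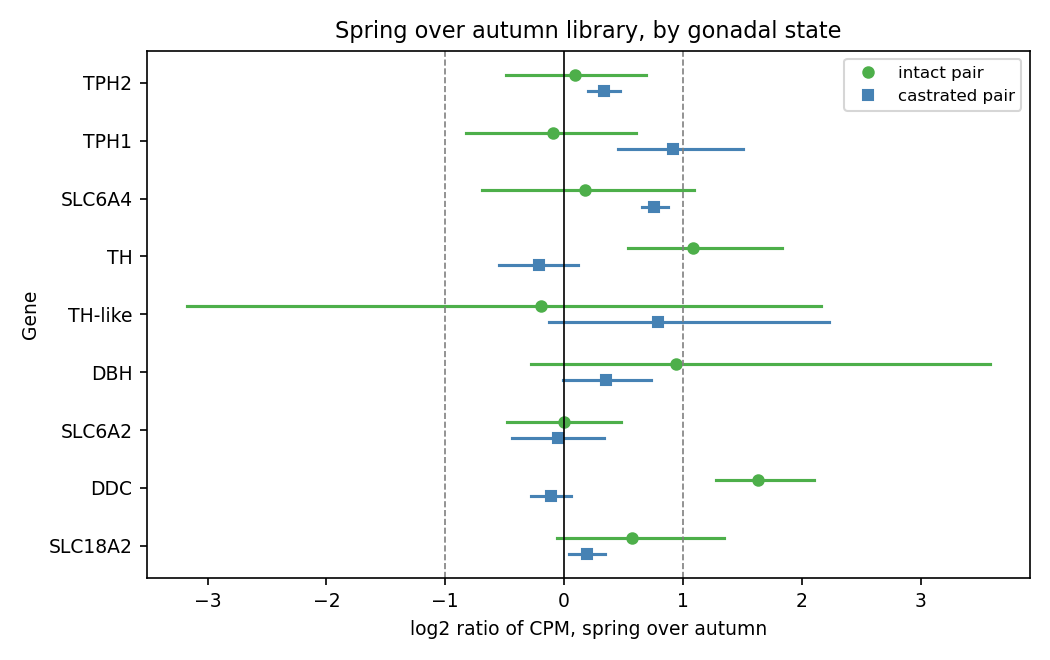
Log2 ratio of CPM, spring over autumn, for each compared member among intact and among castrated birds, with the exact 95% binomial interval of the count split, and the 2-fold lines. DDC and TH pass the 2-fold line among intact birds (1.63 and 1.08) and lie just below 0 among castrated birds (-0.11 and -0.21).

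Levels of different genes can be compared only per length of transcript, for which the deposited TPM (transcripts per 1000000) summed over the contigs of a gene was used. In the spring intact library DDC was highest at 3.15 TPM, followed by TH at 1.75 and TPH2 at 1.11. In the autumn intact library TPH2 (1.02), DDC (0.962), TH (0.669), SLC6A2 (0.665), SLC18A2 (0.611) and TPH1 (0.580) all lay within a narrow span, and neighbours in that order did not differ beyond counting error. In both castrated libraries the order was led by TPH2, at 37.5 TPM in spring and 33.8 in autumn, then SLC6A4 at 19.4 and 12.2, SLC18A2 at 13.7 and 12, DDC at 7.54 and 8.58, TH at 3.18 and 3.67 and DBH at 2.56 and 3.16. The place of TPH2 in that order rests on the sum over its contigs, and its place from the longer contig alone was not computed. SLC6A4 and SLC18A2 did not differ beyond counting error in the autumn castrated library, nor did TH and DBH in either castrated library. SLC6A4, the member with the largest ratio of castrated over intact, was among the lowest in both intact libraries, at 0.301 TPM in spring and 0.257 in autumn.

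Ratios between members inside a library do not depend on the scaling between libraries. TPH2 stood to TH at 0.639 (0.438 to 0.927) in TPM in intact birds in spring and 1.53 (0.956 to 2.47) in autumn, and at 11.8 (9.75 to 14.4) and 9.20 (7.90 to 10.8) in castrates. TPH2 stood to TPH1 at 2.08 and 1.76 in the intact and at 29.4 and 51.6 in the castrated libraries. In TPM summed over contigs TPH2 was therefore far above TH and TPH1 in the castrated libraries, and near them in the intact ones. In castrates each ratio with TPH2 depends on its contig of 1003 bases, which held 62.8% of its counts in spring and 80.3% in autumn. Its other contig, of 2109 bases, held 329 and 198 counts there, where TH had 121 and 202 on contigs of 1784 and 2343 bases. The ratio of TPH2 to TH in TPM from that contig alone was not computed. SLC18A2 stood to SLC6A4 at 3.14 (1.89 to 5.34) and 2.38 (1.33 to 4.32) in the intact and at 0.707 (0.644 to 0.776) and 0.982 (0.898 to 1.07) in the castrated libraries. DBH stood to TH at 0.382 (0.182 to 0.727) and 0.242 (0.0621 to 0.685) in the intact, and at 0.807 (0.620 to 1.05) and 0.861 (0.685 to 1.08) in the castrated libraries. Of the 11 and 4 intact DBH counts, 7.14 and 1.43 lay on a contig of 731 bases matched over only 44 residues. DDC stood to TH at 1.80, 1.44, 2.37 and 2.34 in order, with intervals that overlapped. DDC stood to TPH2 at 2.83 and 0.941 in the intact and 0.201 and 0.254 in the castrated libraries.

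The 10 members rest on 23 contigs matched to 10 flycatcher proteins at an amino acid identity of at least 77.3%, and reads that fit several contigs of 1 gene were shared among them by estimation. TPH2 has a contig of 1003 bases with 0, 0, 554 and 809 counts in order, and one of 2109 bases with 53, 50, 329 and 198. The short contig was thus seen only in the castrated libraries, and from the long contig alone the castrated over intact log2 ratio was 2.62 (2.28 to 3.15) for spring and 1.47 (1.09 to 2.02) for autumn. SLC6A4 rests almost wholly on 1 contig of 3489 bases matched over 668 residues, which held 1521 and 1289 of its castrated counts. DBH has a contig of 2354 bases matched over 619 residues, with 3.86, 2.57, 111 and 99.3 counts in order, and a contig of 731 bases matched over only 44 residues at 77.3% identity, with 7.14, 1.43, 4.73 and 30.7. The long contig alone gave DBH log2 ratios of castrated over intact of 4.0 in spring and 3.61 in autumn.

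The DDC contigs of 2890 and 2853 bases both match 485 residues at 97.9% identity. The first held 196, 67.0, 489 and 344 counts in order, and the other held 17.2, 0, 0 and 416. On the 2890-base contig alone, DDC was higher in spring among castrated birds too, at a log2 ratio of spring over autumn of 1.02 (0.83 to 1.24), where the summed gene had -0.11. SLC18A2 has 6 contigs, of which that of 2293 bases held most castrated counts (512 and 620) and that of 2115 bases all 30.0 counts of the autumn intact library. The TH contig of 1784 bases held 66.6, 16.1, 115 and 166 counts in order and that of 2343 bases 2.43, 14.9, 6.14 and 36.4. SLC6A2 has contigs of 4568 and 4579 bases that both match 629 residues without a mismatch, and the longer one held 44.4, 0, 23.5 and 33.5 counts. Which contig carried the reads therefore differed between libraries for these genes, and the sums over contigs are the values used here.

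**Figure D5:**
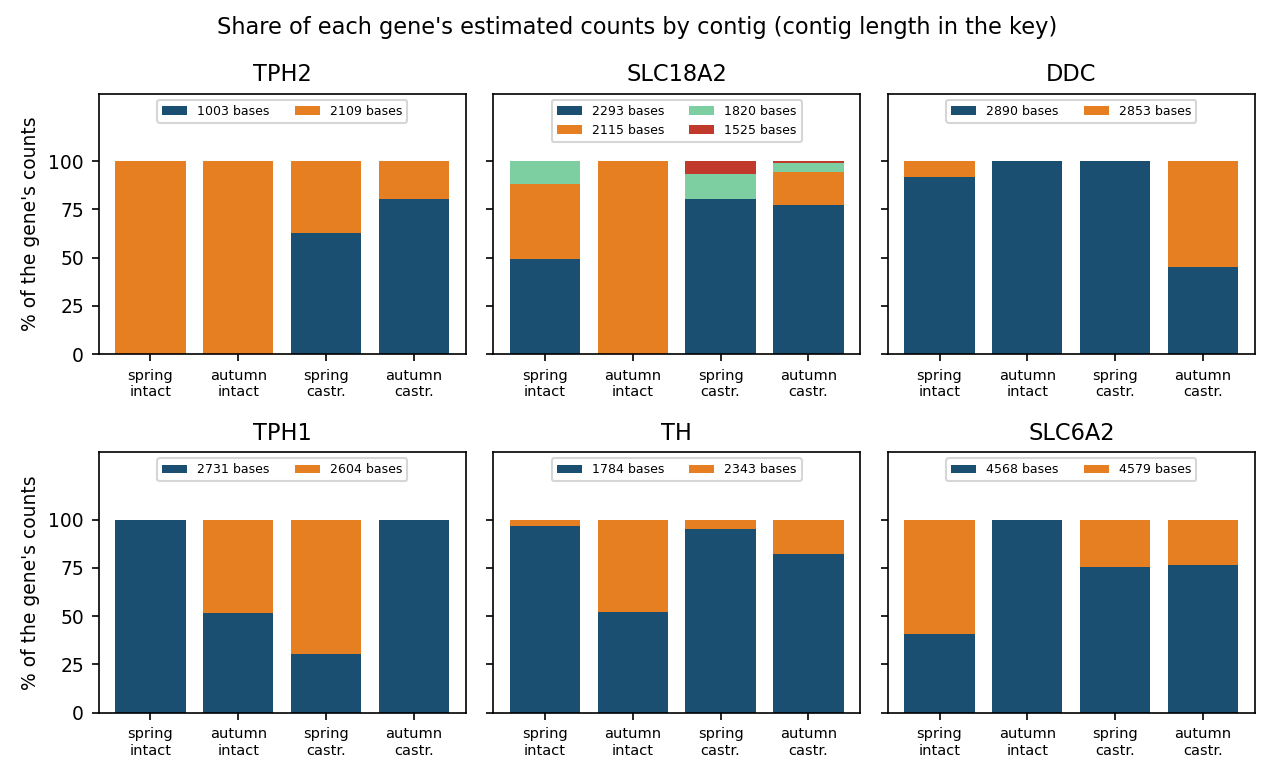
Share of the estimated counts of 6 members that each contig held in each library (% of the gene's counts), with contig lengths in the key, leaving out 2 SLC18A2 contigs with under 1 count. The 1003-base TPH2 contig holds no counts in the intact libraries and most of them in the castrated ones, and the 2853-base DDC contig holds most counts only in the autumn castrated library.

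Some genes had a profile close to that of a member over the 4 libraries on the log2(CPM + 0.5) scale. Likeness was measured as the root mean square difference of log2 CPM, centred over the 4 libraries. Any gene that separates castrated from intact libraries to the same extent thus comes close. The closest names were taken among 10132 characterised names, and names within 0.5 were counted over all 10556 compared names. SLC6A4 was closest to engrailed-1 (0.18), Hox-D3 (0.31), Hox-A3 (0.43), Pax-2 (0.46) and urotensin-2B (0.50), and no other names were within 0.5. These neighbours of SLC6A4 had 0 to 3 counts in each intact library and passed the minimum only through the castrated ones. Their distance to SLC6A4 thus depends on the added 0.5 CPM. The same holds for 4 names below, which had 0 to 4 counts in each intact library. They are Hox-D4 (1, 0, 64 and 52 counts in order), inactive hydroxysteroid dehydrogenase-like protein 1, Hox-A1 and homeobox even-skipped homolog protein 1. Engrailed-1, a transcription factor of the midbrain and anterior hindbrain, had 1, 1, 286 and 294 counts in order. TPH2 was closest to SLC18A2 (0.18), another member, followed by Hox-D4 (0.20), inactive hydroxysteroid dehydrogenase-like protein 1 (0.27), vesicle-associated membrane protein 1 (0.32) and the glycine transporter 2 (0.33), with 16 names within 0.5. SLC18A2 had the same 5 neighbours with TPH2 in its own place, at 0.18 to 0.31. DBH was closest to transmembrane protein 25 (0.20), Hox-A1 (0.26), glycine receptor subunit alpha-1 (0.28), actin filament-associated protein 1 (0.29) and homeobox even-skipped homolog protein 1 (0.29), with 25 names within 0.5. The list of close genes was long for DDC (93 names within 0.5) and TH (784), and for TPH1 (4148) and SLC6A2 (6679) it held a large share of all genes, so their profiles set them apart little. Among the members themselves TPH2 and SLC18A2 were the closest pair, at 0.18, and SLC6A4 and SLC6A2 the farthest apart, at 2.56.

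Both hydroxylases need tetrahydrobiopterin as a cofactor. Of 7 genes of its synthesis and recycling 6 were compared. At least 2-fold higher in castrates in both seasons were 2, where 4.54% of all compared genes were. In the autumn pair 3 were higher (these 2 and PTS) and 1 lower, where 12.3% and 15.2% of all compared genes were. GCH1, the entry enzyme of the synthesis, had 46, 57, 175 and 321 counts in order (castrated over intact log2 ratios of 1.91 for spring and 1.98 for autumn). SPR, which completes the cofactor, had 101, 27, 251 and 167 counts in order (1.35 and 2.04). SPR was also 2-fold higher in spring than in autumn in both gonadal states (1.78 among intact and 1.09 among castrated birds), which no member was. The median log2 ratio of the list, castrated over intact, was -0.16 in spring and 1.25 in autumn. The other 4 were not 2-fold higher in both seasons, and PTS, for example, had 1.79 in autumn and -0.14 in spring. PCBD2, the gene lower in autumn, had -1.80 there and -0.39 in spring, on 19, 22, 13 and 5 counts in order.

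Of the 5 compared enzymes that break monoamines down, 0 passed 2-fold in both seasons, where 4.54% of all compared genes were higher and 9.62% lower. In castrates 1 of 5 was 2-fold higher in spring and 0 in autumn, against 8.67% and 12.3% of all compared genes. In either season 0 were lower, against 14.5% and 15.2%. For so few genes these counts are near those shares. The median log2 ratios were 0.13 and -0.48. Monoamine oxidase A (MAOA) had 1299, 1193, 776 and 1129 counts in order, with castrated over intact log2 ratios of -0.67 for spring and -0.52 for autumn. Monoamine oxidase B (MAOB), which in brain lies largely in astrocytes and serotonin neurons, had -0.84 and -0.48. Of the transporters outside the members that take up monoamines, SLC22A3 had -1.19 and -0.24 and SLC29A4 0.25 and -0.46.

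Transcription factors that specify monoamine neurons were higher in the castrated libraries, most widely in spring. Of 18 on the list 14 were compared, and all 14 were 2-fold higher in castrates in spring, 7 were higher and 1 (TFAP2B, at -1.58) lower in autumn, and 7 were higher in both (EN1, EN2, NKX2-2, FOXA1, FOXA2, PITX3 and PHOX2A). Over all compared genes 8.67% were higher in spring, 12.3% were higher and 15.2% lower in autumn, and 4.54% were higher in both. For 6 of the 14 the mean of the intact libraries was under 1 CPM, among them EN1, EN2, FOXA1, FOXA2 and PHOX2A, so these passed the minimum only through the castrated libraries and had to be higher there. The list's median log2 ratio of castrated over intact was 2.97 in spring and 0.97 in autumn. Unlike TPH2 and SLC6A4, the serotonin factors differed between the intact libraries: FEV had 2 counts in spring and 10 in autumn, GATA3 had 40 and 97, and LMX1B 13 and 98. Of the 14 factors 6 were 2-fold lower in the spring than in the autumn intact library, and 1 was higher. Over all compared genes 4.48% were lower and 2.55% higher in that pair. The autumn intact library was thus near the castrated ones for LMX1B (158 and 151 counts there, and a castrated over intact log2 ratio of 0.17 in autumn), while its TPH2 and SLC6A4 levels were as low as in spring. Several of these factors, such as EN1, LMX1B and NKX2-2, are expressed in other cells of the midbrain and hindbrain as well, and 11 of the 14 also stand in the region and cell type marker lists given above.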

How the data were processed

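Total RNA of 4 hypothalamus samples was sequenced by the authors, 1 library a group. Trimmomatic, a read trimmer, and kallisto, which estimates counts per transcript, are named with no version, per the submitters' processing notes. The deposited tables hold, per the file headers, each contig's estimated count and its TPM; contigs at 0 are not listed. The deposited table of matches of contigs to flycatcher proteins gives percent identity and a bit score, per the file headers. How contigs were assembled and matched is not given in the sources used here.

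The best bit score match of each contig was kept (e-value of at most 1e-05; 50994 of 507906 contigs). Estimated counts were summed by protein name and rounded, and names with a mean of at least 1 CPM were compared. CPM were scaled by edgeR 4.0.16 TMM factors (0.923 to 1.04; R 4.3.3), and log2 ratios are on the log2(CPM + 0.5) scale, which understates the change of low genes. Intervals are exact 95% binomial (Clopper-Pearson) intervals of the count split, without the added 0.5, and exact Poisson intervals of levels. The labels mention no molecular identifiers, so intervals and floors (3 counts, 0.298 to 0.429 CPM) cover counting error only. The additive edgeR fit was tested on simulated counts, with known differences by gonadal state and none by season. That simulation does not measure the spread between birds of a group.

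Every member is named. From other lists the genes past 2-fold the same way in both pairs of a factor were named first, up to 4 a list, and further genes were chosen after their values were seen. Of 132 symbols in 22 lists, 106 matched a name and 99 were compared. The result of 1 list is not reported here. The members and lists were chosen with earlier results of these data known. Ratios of TPH2 to TPH1, of TPH2 to TH and of DDC to TPH2 were added after the data were seen. Alternatives were DESeq2 1.42.0 size factors, other totals, filters, added values and match limits, single contigs, TPM, counts thinned to the smallest library, and an additive edgeR fit. No sequence table was used here.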

Additional observations from a re-analysis of the deposited data

Results flagged for a closer look

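For 4 members the log2 ratio of spring over autumn had opposite signs among intact and among castrated birds. DDC had 1.63 among intact and -0.11 among castrated birds, and TH had 1.08 and -0.21. Both were thus higher in spring among intact birds, and the castrated libraries did not differ beyond counting error. On its 2890-base contig alone DDC had 1.51 among intact and 1.02 among castrated birds, so its signs did not differ there. TPH1 had -0.10 among intact and 0.91 among castrated birds, and TH-like had -0.19 and 0.79. With its highest contig only, TPH1 had 0.76 among intact and -0.70 among castrated birds, so its signs turned round. With 1 library a group the difference between gonadal states was not tested for any of them. The interval of counting error was clear of 0 in 1 of the 2 states for DDC, TH and TPH1 and in neither for TH-like.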

How the results depend on the processing

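No replicate could be left out, since each group has 1 library. No paired analysis was possible because the labels give no replicate numbers, and the additive fit below keeps season as a term. The 5 members 2-fold higher in castrates in both seasons passed under all 12 alternatives, and with 0.1 CPM added TH-like made 6. Of 428 recomputed log2 ratios, 377 moved by less than the counting interval, 49 by more, and 2 called values reversed: TPH1, castrated over intact in spring (1.13), was -0.49 with its highest contig only and -0.49 with the contig of the longest match only, an alternative chosen after the data were seen. TPH1 among castrated birds, spring over autumn (0.91, not called), also changed sign, to -0.70 and -0.71. The contig used moved the values of TPH2 most, castrated over intact, with a range of 2.61 to 7.65 for spring and 1.48 to 7.71 for autumn.

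Of the members 2-fold higher in spring among intact birds (2), 1 was left with 2 CPM added (TH at 0.88) and 1 with TPM (TH at 0.94), while there were 3 with 0.1 CPM added (DBH at 1.32) and 3 with a single contig (SLC18A2 at 3.20 with the highest and 3.43 with the longest match contig, against 0 autumn counts). Of those lower (0), there was 1 with the highest contig only and 1 with the longest match contig only. Of those higher in spring among castrated birds (0), there was 1 with matched totals and no further scaling, 1 with totals over all contigs and 1 with the longest match contig only. Without that scaling the median of all genes shifted by -0.16 for castrated over intact in autumn and by 0.16 for spring over autumn among castrated birds, and with totals over all contigs by 0.11 for the latter. TH-like had no value with a minimum of 5 CPM.

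The additive edgeR fit called, for gonadal state, the same 5 members after Benjamini-Hochberg adjustment over all 10556 genes: SLC6A4 (adjusted p = 4.7e-04), TPH2 (6.3e-04), SLC18A2 (8.5e-04), DBH (0.0064) and DDC (0.024). TH had an adjusted p of 0.062. For season it called 0 genes after adjustment, with 530 genes and 1 member, SLC6A4, at an unadjusted p under 0.05. Depth limits the intact values of DBH and TH-like, with 3 to 11 counts.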

Other observations

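Serotonin receptors did not follow the serotonin synthesis and uptake genes. Of the 13 serotonin receptors compared, 3 were at least 2-fold lower and 1 higher in castrates in spring, and 7 lower and 1 higher in autumn. Over all compared genes 14.5% were lower and 8.67% higher in spring and 15.2% lower and 12.3% higher in autumn, so the spring count is near that share. HTR6 had 379 and 313 counts in intact birds in spring and autumn and 35 and 44 in castrates (castrated over intact log2 ratios of -3.25 and -3.14). HTR2C had 817 and 775 counts against 307 and 428 (-1.34 and -1.29). HTR3A, a receptor ion channel subunit, went the other way with 9 and 10 counts against 29 and 39 (1.43 and 1.24). HTR1A, the autoreceptor on raphe cell bodies, had 0.59 and -0.40. The list's median was -0.81 in spring and -1.29 in autumn.

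Among the 6 receptors known from monoamine neurons themselves, DRD2 (569 and 673 counts in intact birds, 128 and 191 in castrates) and ADRA2C (892 and 864 against 161 and 279) were 2-fold lower in both seasons. Their log2 ratios of castrated over intact were -2.06 and -2.23 for DRD2 and -2.38 and -2.06 for ADRA2C. Over all compared genes 9.62% were 2-fold lower in both seasons. Of these 6 receptors 2 were lower in spring and 4 in autumn, against 14.5% and 15.2% of all compared genes, and 0 were higher in either. ADRA2C was also the 1 gene of 6 adrenergic receptors that was 2-fold lower in both seasons, a count near that share. DRD2, HTR6 and ADRA2C are strongly expressed in the striatum of mammals, and 5 of the 7 compared telencephalic and striatal markers were also 2-fold lower in both seasons, with DRD1 at 2857 and 4157 counts in intact birds and 163 and 191 in castrates, whereas NEUROD6 was higher (19 and 32 counts against 144 and 166). Their part in these receptor values was not tested.

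The histamine receptor HRH1 was 2-fold higher in spring in both gonadal states, with 35 counts in spring and 7 in autumn among intact birds and 23 and 6 among castrated birds (log2 ratios of 1.87 and 1.79). Of the enzymes around histamine, HDC, which makes it, had log2 ratios of castrated over intact of -0.33 in spring and 0.03 in autumn, and HNMT, which inactivates it, had 0.60 and 1.35. ASMT, the last enzyme of melatonin synthesis, had 74, 116, 101 and 295 counts in the order of libraries used above, and AANAT, the step before it, had 9, 4, 6 and 14 and was not compared.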
